A study of Mus musculus with 48 samples.

Results

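The NMDA receptor subunit genes described here were Grin1, Grin2a, Grin2b, Grin2c, Grin2d and Grin3a. They were chosen by name, as the rows whose Ensembl identifier the mouse GENCODE annotation pairs with these symbols, which gave 6 of the 48526 counted genes. All 6 had enough counts to be tested in every comparison.

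The libraries came from the cerebral cortex of 12 male wild-type C57BL/6JRj mice that carried no engineered allele and received no agent, 4 at 3 weeks (3w), 4 at 5 months (5m) and 4 at 18 months (18m). The middle group is 6 months old in the sample labels and 5 months old in the preparation protocol, and the name 5m is used here. Each mouse gave 4 libraries of total RNA after rRNA depletion, from total homogenate (TH) and from synaptosomes (SYN), each before (input) and after (SC) pelleting of ribosomes through a sucrose cushion. Synaptosomes are pinched-off synaptic terminals banded on a sucrose gradient, and the band also carries pieces of glia. Each library is named by its mouse number, 187 to 190 at 3w, 191 to 194 at 5m and 195 to 198 at 18m.

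NMDA receptors are glutamate-gated cation channels that open only when glutamate and a co-agonist are bound while the membrane is depolarised, and calcium entering through them drives synaptic plasticity. Every receptor contains the Grin1 subunit, which binds glycine or D-serine, together with Grin2 subunits, which bind glutamate and set the kinetics of the channel, or Grin3 subunits. In rodent cortex Grin2b prevails around birth and Grin2a is added during the first postnatal weeks. Grin2c is known best from the cerebellum, thalamus and astrocytes, Grin2d from interneurons and early development, and Grin3a from developing synapses, where it lowers calcium permeability.

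The family is shown by the coding sequence of 7 codons in the third membrane segment, the most conserved stretch of these proteins, because reads from relatives with such similar sequences could be counted on the wrong gene. The bases are given 5′ to 3′ in the sense of the mRNA, from the GENCODE annotation on the minus strand of GRCm38, and capitals mark the last position of each codon.
Grin1 (chr2:25297202-25297222, exon 15 of 21): taCacTgcCaaCctGgcAgcC
Grin2a (chr16:9653450-9653470, exon 10 of 14): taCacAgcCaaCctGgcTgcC
Grin2b (chr6:135772247-135772267, exon 10 of 14): taCacTgcCaaCttAgcCgcC
Grin2c (chr11:115253752-115253772, exon 11 of 15): taCacGgcCaaTctGgcAgcC
Grin2d (chr7:45854282-45854302, exon 8 of 12): taTacAgcCaaTctGgcTgcC
Grin3a (chr4:49770473-49770493, exon 3 of 9): taCacAgcGaaCttGgcTgcT

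The stretch was located by residues that all of these genes share. Only differences that keep the residue could therefore occur in it, most of them in the capitals. Even so, between 15 and 19 of 21 bases were identical in the 15 pairs of genes. Over whole transcripts, the longest run of identical bases that a pair shared was between 13 and 34 bases long, the longest being that of Grin2b and Grin2c. Per the methods of the study, the reads were longer than any of these runs, and miscounting between the genes was not tested.

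The 6 genes differ in length and base composition, both of which bear on counts. Grin1 (chromosome 2, 25291181 to 25319187), Grin2c (chromosome 11, 115249169 to 115267243) and Grin2d (chromosome 7, 45831883 to 45878378) are GC-rich, with 59.4%, 62.1% and 65.0% G or C in the longest transcript of each gene. Grin2a (chromosome 16, 9567898 to 9995560) and Grin2b (chromosome 6, 135713233 to 136173511) have 44.8% and 45.7%, and Grin3a (chromosome 4, 49661611 to 49845744) has 49.2%. In the longest-coding transcripts the contrast was smaller within the coding sequence, with 55.6% in Grin1, 50.8% in Grin2a and 52.9% in Grin2b, than after the stop codon. The part after the stop codon is 1190 bases long in that transcript of Grin1, 9932 in Grin2a and 18868 in Grin2b. Counting did not use strand, and an antisense gene, Grin1os, covers 13.5% of the exonic bases of Grin1 with a median of 6 counts in its own row, while Gm45441 covers 9.66% of those of Grin2d with a median of 24.5 counts. The lowest count of any subunit gene in a library was 42, for Grin2d, and the highest was 37234, for Grin2b.

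Libraries held 1780267 to 18590040 counts. The variance between replicate libraries was 2.21 to 39.9 times that of counting error over 72 pairs, so none was a copy of another. Cortical excitatory markers were present in every group. Among 5 cerebellum markers, Gabra6, which marks granule cells, had no count in most groups, but the list as a whole had counts in every group. The fractions differed in other cell types as well, in CPM, which are counts divided by the library total and put on a common scale by TMM over the 48 libraries. The summed level of 6 astrocyte markers had group medians of 3909 to 6204 CPM in TH and of 12248 to 15361 CPM in SYN, and 5 nuclear RNAs had medians of 5383 to 19608 CPM in TH and of 1105 to 2719 CPM in SYN. Lists of markers of other regions had summed group medians of 17.0 to 27.0 CPM (5 cerebellum markers) and 19.8 to 41.5 CPM (3 thalamus markers). For 5 striatum markers they were 342 to 676 CPM, and the part of other regions was not tested. Trends of counts on GC content and exon length, fitted together, differed between libraries of the same group. Values with both removed are given beside several results, for short as with the GC trend removed, so the 2 are not told apart. In exon length, Grin2a and Grin2b lie above 99.6% and 99.9% of the counted genes.

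In SC_SYN, the RNA that pelleted with synaptosomal ribosomes, Grin1 stood at 2648, 2506, 2826 and 2461 CPM in the 4 mice at 3w. It stood at 3100, 2488, 2610 and 2681 CPM at 5m and at 1767, 2247, 2234 and 2152 CPM at 18m. In input_SYN the 12 libraries lay between 1450 and 1950 CPM, in SC_TH between 653 and 803 CPM, and in input_TH between 425 and 583 CPM, so every SYN library lay above every TH library, while the lowest SC_SYN library, at 18m, lay within the range of input_SYN.

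Grin2b, the glutamate-binding subunit that dominates early in life, stood at 2914, 3543, 3433 and 3295 CPM in SC_SYN at 3w, at 2106, 2344, 2391 and 2706 CPM at 5m, and at 2620, 2420, 2392 and 2578 CPM at 18m. In input_SYN it was higher, at 3565, 4094, 4498 and 3900 CPM at 3w, at 3073, 3027, 3179 and 3111 CPM at 5m, and at 4138, 3136, 3878 and 3116 CPM at 18m. Grin2a, the subunit added during maturation, had the same order of fractions, with 918 to 1444 CPM over the 12 SC_SYN libraries, 1285 to 1937 CPM in input_SYN, 573 to 724 CPM in SC_TH and 482 to 651 CPM in input_TH. In both genes the highest libraries were thus in input_SYN, whereas for Grin1 they were in SC_SYN.

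The remaining 3 genes were far lower. Grin2c ranged from 39.9 to 68.8 CPM in the 24 TH libraries and from 67.7 to 145 CPM in the 24 SYN libraries. Grin2d ranged from 15.7 to 23.0 CPM in TH and from 25.5 to 75.7 CPM in SYN. Grin3a ranged from 31.3 to 54.4 CPM in TH and from 62.9 to 109 CPM in SYN.

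**Figure D1:**
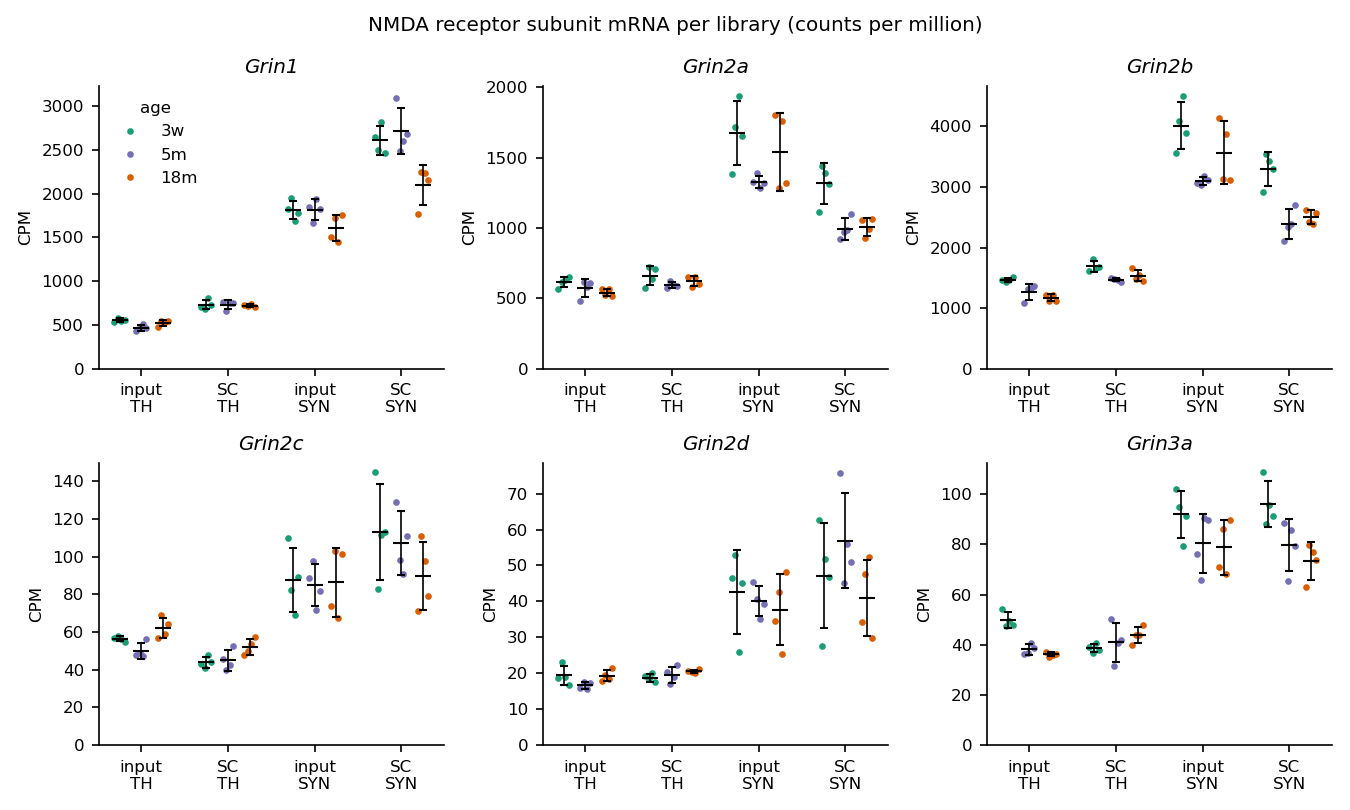
TMM-scaled CPM of each subunit gene (vertical axis, from 0) in the 4 fractions, with 1 point per library coloured by age and black bars for the mean ± SD of 4 mice. All panels are higher in SYN than in TH, and Grin1 is highest in SC_SYN while Grin2a and Grin2b are highest in input_SYN.

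Levels of different genes can be compared only per length, as CPM per kilobase of annotated exon (RPKM). In SC_SYN at 5m Grin1 stood at 280.4 ± 27.4 RPKM (SD, n = 4), Grin2b at 96.1 ± 9.93, Grin2a at 55.4 ± 4.24, Grin2c at 21.3 ± 3.34, Grin2d at 8.55 ± 1.99 and Grin3a at 6.50 ± 0.842. Grin2d and Grin3a, the lowest, did not differ beyond their spread, and they changed places between groups. In input_TH at 5m the order was Grin2b (51.2 ± 5.35 RPKM), Grin1 (48.2 ± 3.42), Grin2a (31.9 ± 3.43), Grin2c (9.95 ± 0.835), Grin3a (3.10 ± 0.175) and Grin2d (2.49 ± 0.142), and Grin1 and Grin2b did not differ beyond their spread.

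The place of Grin1 depends on the length used. The annotated exons of Grin1 span 9700 bases, whereas its longest-coding transcript has 4276, and with transcript lengths Grin1 came to 109 ± 7.75 RPKM in input_TH at 5m against 52.8 ± 5.53 RPKM for Grin2b, so that it was first in every group. Shares within the family show how the fractions differ. Grin1 made up 32.9% of the summed RPKM (by annotated exon) of the 6 genes in input_TH at 5m, 41.1% in SC_TH, 45.1% in input_SYN and 59.8% in SC_SYN. Grin2b made up 34.8%, 32.4%, 30.0% and 20.6% in the same order, and Grin2a 21.7%, 18.1%, 17.8% and 11.9%.

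Whether subunit mRNA is enriched at the synapse was asked by comparing SYN with TH, in edgeR's quasi-likelihood test with Benjamini-Hochberg adjustment over all genes tested and a threshold of 0.05. All 6 genes were higher in SYN at all 3 ages, in SC and in input. In SC, the ratio that the study names the TE of SYN, 31.1% of 16630 genes were higher at 3w, 32.1% at 5m and 29.9% at 18m, and in input 31.7%, 32.6% and 32.9% of 17860. Genes past the threshold in either direction were the majority, 63.5%, 67.8% and 62.1% in SC and 71%, 72.7% and 72.3% in input, so that passing alone does not set the family apart. The median log2 fold change of the 6 genes was 1.36, 1.16 and 0.83 in SC and 1.44, 1.40 and 1.43 in input, where the median of all genes tested was between -0.18 and -0.04. For each of the 6 genes, SYN exceeded TH in 12 of 12 mice in both kinds of library. How many of all genes had the same direction in every mouse, or groups that did not overlap, was not counted. This holds for the comparisons below too, so such counts do not set the family apart either.

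Grin1 had the highest ratios of the family, though level with Grin2b in input at 18m (1.72 ± 0.08 against 1.70 ± 0.08). Its log2 fold change was 1.89 ± 0.09 (standard error) at 3w, 1.96 ± 0.09 at 5m and 1.60 ± 0.09 at 18m in SC, and 1.84 ± 0.08, 2.12 ± 0.08 and 1.72 ± 0.08 in input. This placed it above 99.0%, 99.3% and 98.3% of genes in SC, with adjusted p of 1.4e-14, 1.23e-14 and 3.32e-13 in edgeR. In input it was above 94.7%, 96.1% and 94.0% of genes.

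Grin2a and Grin2b were enriched in SYN more in input than in SC. Grin2b had log2 fold changes of 1.58 ± 0.08, 1.44 ± 0.08 and 1.70 ± 0.08 in input and of 1.01 ± 0.09, 0.76 ± 0.09 and 0.77 ± 0.09 in SC, at 3w, 5m and 18m. Grin2a followed it closely, with 1.57 ± 0.10, 1.37 ± 0.10 and 1.61 ± 0.10 in input and 1.04 ± 0.09, 0.80 ± 0.09 and 0.76 ± 0.09 in SC. The test of this difference is given with the ratio of SC to input.

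The less abundant subunits were enriched as well. Grin2c had 1.41 ± 0.15, 1.30 ± 0.14 and 0.85 ± 0.14 in SC and 0.79 ± 0.13, 0.91 ± 0.13 and 0.60 ± 0.12 in input. Grin2d had 1.37 ± 0.20, 1.59 ± 0.19 and 1.07 ± 0.18 in SC, and Grin3a 1.36 ± 0.12, 1.01 ± 0.11 and 0.80 ± 0.11. All groups of SYN and TH were separate except those of Grin2c in input at 18m, where a SYN library at 67.7 CPM lay below a TH library at 68.8 CPM. The size of the ratios depended on the scaling. When libraries were scaled by their totals instead of TMM, the median of all genes went from -0.09 to -0.68 in SC at 5m and from -0.18 to -0.83 in input at 5m, and Grin2b in SC at 5m (0.17, adjusted p = 0.0734 in edgeR), Grin2c in input at 3w (0.21, adjusted p = 0.105) and Grin2c in input at 18m (0.02, adjusted p = 0.862) no longer passed, while Grin1 kept at least 1.07.

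**Figure D2:**
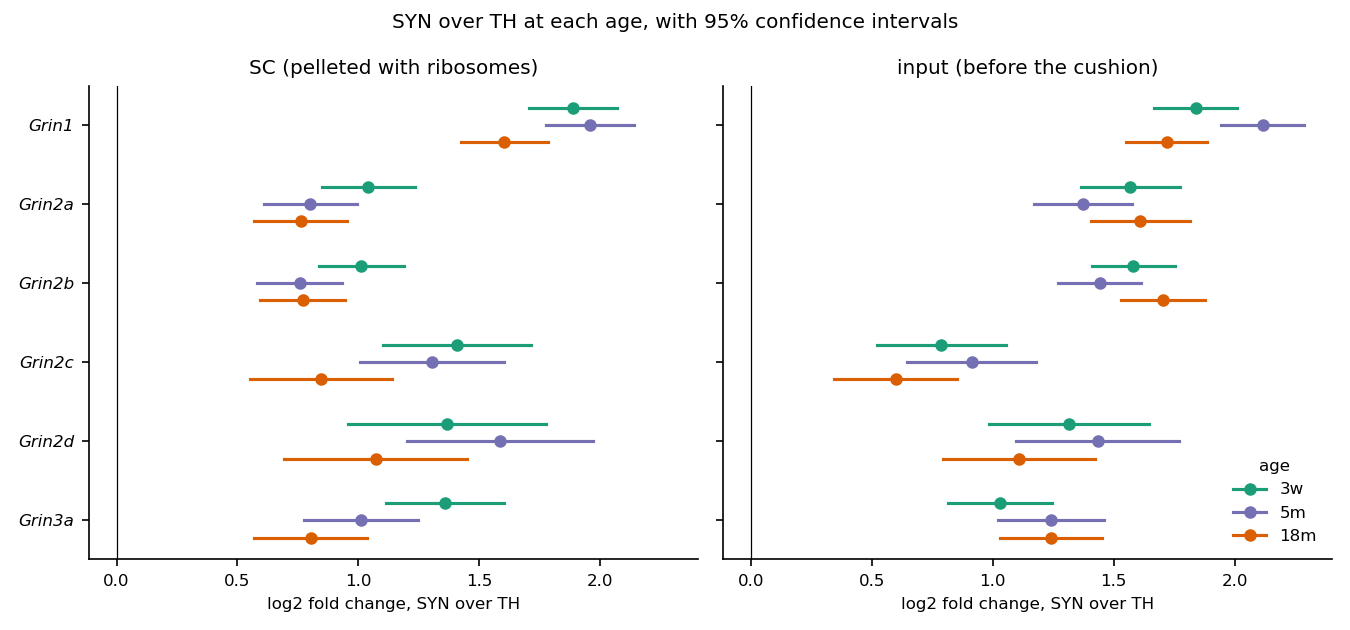
Log2 fold change of SYN over TH (horizontal axis) for each subunit gene, in SC on the left and input on the right, coloured by age, with 95% confidence intervals. Filled points have an adjusted p under 0.05 in edgeR, as all 36 have, and Grin2a and Grin2b lie further right in input while Grin1 is near 1.60 to 2.12 in both.

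Markers of cell types moved between the compartments too. All 6 astrocyte markers were higher in SYN at each age in SC and in input. Among 6 excitatory neuron markers, the vesicular transporters Slc17a7 and Slc17a6 were higher in SC_SYN at 5m, by 1.51 and 1.27 on the log2 scale, while the transcription factors Neurod6, Neurod2 and Tbr1 were lower, so that the summed level was 3300 to 4030 CPM in SC_SYN and 1546 to 1696 CPM in SC_TH. In these libraries, which mix cells, fewer pieces of a cell type and less RNA of a gene per cell cannot be told apart, and the part of such differences in the ratios of the subunit genes was not tested.

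Whether the enrichment in SYN changed with age was tested as an interaction of compartment and age. None of the 6 genes passed in SC, where 0.0301% of genes passed for 5m against 3w and 0% for 18m against 5m in edgeR (2855 at an unadjusted p under 0.05, and 317 called by DESeq2). None passed in input, where 0.0224% and 2.42% of genes did. For Grin1 in input, SYN over TH was lower at 18m than at 5m by a log2 difference of -0.40 ± 0.11 (adjusted p = 0.0569 in edgeR). With the mouse as a block, which the origin of the 4 libraries in one animal calls for, the difference was -0.40 with an adjusted p of 0.0293, and with the GC trend removed as well it was no longer past the threshold.

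Levels after the cushion were set against levels before it by the ratio of SC to input, which the study calls translational efficiency (TE) within a compartment. The pellets also held the 5 nuclear RNAs, at group medians of 5383 to 11598 CPM in SC_TH and of 1105 to 2535 CPM in SC_SYN. How much of the ratio is loading on ribosomes was not tested. In SYN, Grin1 was higher in SC than in input and Grin2a and Grin2b were lower, at all 3 ages, where 18.5%, 20% and 12.6% of 14301 genes passed in either direction at 3w, 5m and 18m. The log2 ratio of Grin1 was 0.48 ± 0.09, 0.52 ± 0.09 and 0.36 ± 0.09 (adjusted p = 8.22e-04, 2.92e-04 and 0.0117 in edgeR). Grin2a had -0.39 ± 0.12, -0.48 ± 0.12 and -0.65 ± 0.12 (adjusted p = 0.0281, 0.0065 and 9.25e-04), and Grin2b had -0.33 ± 0.11, -0.44 ± 0.11 and -0.54 ± 0.11 (adjusted p = 0.0359, 0.00519 and 0.0015). Mouse by mouse, Grin1 was higher in SC_SYN than in input_SYN in 12 of 12 mice, by 0.23 to 0.74 on the log2 scale. Grin2a was higher in 0 of 12, with ratios of -0.83 to -0.25, and Grin2b in 0 of 12, with ratios of -0.70 to -0.20.

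The values at 3w were the least certain. With the mouse as a block and the GC trend removed there, Grin2a had -0.20 (adjusted p = 0.085 in edgeR) and Grin2b -0.08 (adjusted p = 0.521), and Grin2c, at 0.32 ± 0.18 before, had 0.46 (adjusted p = 0.00227). Leaving out a mouse at 3w left Grin2b past the threshold in 0 of 4 cases and Grin2a in 2 of 4, and at 18m it left Grin1 past it in 2 of 4. Grin2d and Grin3a did not pass in SYN at any age, Grin2d between 0.08 ± 0.23 and 0.44 ± 0.23 and Grin3a between -0.13 ± 0.12 and 0.02 ± 0.12. With the mouse as a block and the GC trend removed, Grin2d had 0.42 at 5m (adjusted p = 0.0331 in edgeR) and passed there.

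In TH the same ratio had another order. Grin1 was higher in SC_TH than in input_TH, by 0.52 ± 0.06, 0.72 ± 0.06 and 0.51 ± 0.06, and Grin2b was higher as well, by 0.33 ± 0.06, 0.29 ± 0.06 and 0.44 ± 0.06, in comparisons where 52.8%, 62.1% and 64% of 18416 genes passed in either direction. Both were higher in 12 of 12 mice. Grin2a was higher by 0.22 ± 0.08 at 3w and 0.25 ± 0.08 at 18m, and at 5m by 0.14 ± 0.08 (adjusted p = 0.117 in edgeR, 0.0371 with the mouse as a block and 5.4e-04, at 0.22, with the GC trend removed as well). All 5 nuclear RNAs were lower in SC_TH than in input_TH at each age and all 6 astrocyte markers were higher, and the part of this in the ratios of the subunit genes was not tested.

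The GC-rich and less abundant genes were less settled in TH. Grin2c was lower in SC_TH by 0.23 at 3w and by 0.20 at 18m, as log2 ratios of -0.23 ± 0.08 and -0.20 ± 0.08, and lower in 12 of 12 mice, but with the GC trend removed the ratios were -0.06, -0.16 and -0.08 at the 3 ages, and the one at 5m was past the threshold (adjusted p = 0.0372 in edgeR) in place of the others. Grin2d passed at 5m (0.33 ± 0.09), and with the GC trend removed at every age (0.33, 0.29 and 0.39). Grin3a was lower in SC_TH at 3w (-0.24 ± 0.09) and higher at the later ages (0.20 ± 0.08 and 0.33 ± 0.08), and at 5m its adjusted p was 0.0399 in edgeR and 0.0553 with the mouse as a block.

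**Figure D3:**
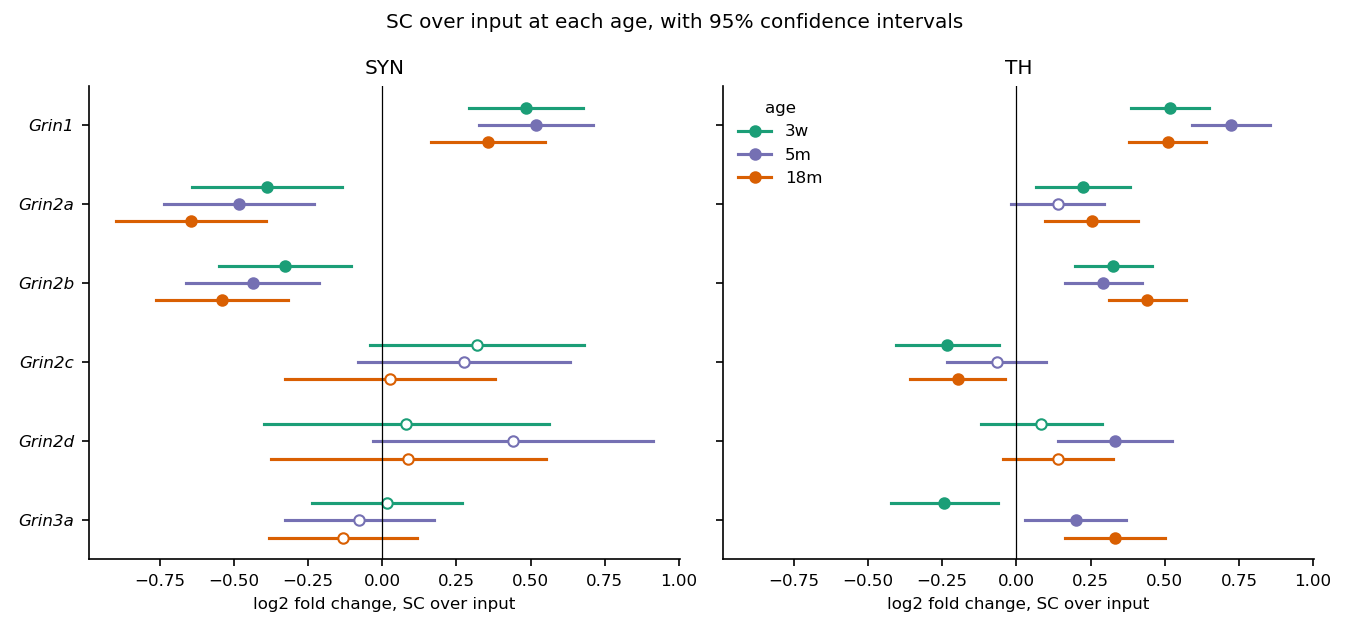
Log2 fold change of SC over input (horizontal axis) for each subunit gene within SYN (left) and TH (right), coloured by age, with 95% confidence intervals; filled points have an adjusted p under 0.05 in edgeR. Grin2a and Grin2b lie left of 0 in SYN and right of 0 in TH, while Grin1 lies right of 0 in both.

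The difference between the compartments was tested itself, as SC over input in SYN minus SC over input in TH in a single edgeR fit of all 48 libraries, a comparison added after the ratios had been seen. For Grin2b this difference was -0.61 ± 0.12 at 3w, -0.70 ± 0.12 at 5m and -0.96 ± 0.12 at 18m (adjusted p = 3.02e-04, 2.7e-05 and 9.64e-08). For Grin2a it was -0.57 ± 0.14, -0.59 ± 0.14 and -0.88 ± 0.14 (adjusted p = 0.00328, 0.0017 and 8.43e-06). Of 18112 genes, 17.7%, 23% and 24.7% passed in either direction. With the GC trend removed the differences were -0.43, -0.65 and -0.95 for Grin2b and -0.43, -0.55 and -0.82 for Grin2a, all past the threshold, as they were with the mouse as a block.

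For Grin1 the difference was 0.00 ± 0.12, -0.18 ± 0.12 and -0.14 ± 0.12 and did not pass, with 95% confidence intervals that reached from -0.41 to 0.24. At 18m it was -0.30 (adjusted p = 0.0623 in edgeR) with the GC trend removed and -0.31 (adjusted p = 0.0447) with the mouse as a block as well, which is past the threshold. Grin2c passed at 3w (0.58 ± 0.20, adjusted p = 0.0411 in edgeR) and Grin3a at 18m (-0.46 ± 0.15, adjusted p = 0.0243). With the GC trend removed Grin2c had 0.47 at 3w (adjusted p = 0.0047 in edgeR) and also passed at 5m, with 0.33 (adjusted p = 0.036, and 0.0169 with the mouse as a block as well). Without any one mouse at 3w Grin2c had adjusted p of 0.0767 to 0.143 in edgeR, and Grin3a had 0.207 without mouse 196 and 0.153 without mouse 198, while Grin2a and Grin2b passed in every such fit. Grin2d did not pass at any age.

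Whether TE changed with age was tested as an interaction of library type and age. In SYN 0 of 14301 genes passed between 3w and 5m and 0 between 5m and 18m, so none of the subunit genes did in edgeR. At an unadjusted p under 0.05 the counts were 473 and 393 genes, and DESeq2 also called 0 and 0. In TH, where 2.33% of 18416 genes passed between 3w and 5m, Grin3a did, with a rise of 0.44 ± 0.12 (adjusted p = 0.0481). The values behind it were 54.4, 47.3, 49.4 and 47.9 CPM in input_TH and 39.0, 36.7, 40.6 and 37.9 CPM in SC_TH at 3w, where the fractions did not overlap, against 36.2, 36.7, 40.9 and 38.7 CPM and 50.3, 31.3, 40.7 and 41.8 CPM at 5m, where they did. It passed in 2 of 8 fits that left out a mouse and had an adjusted p of 0.0824 with the GC trend removed. Between 5m and 18m none of the 6 genes passed in TH, where 1.78% of genes did.

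Changes with age were tested within each fraction. Both comparisons of a fraction share the libraries at 5m, so their values are not independent. Between 3w and 5m in SC_SYN, 8.05% of 14240 genes passed in either direction and 4.02% were lower, and Grin2b and Grin2a were among the lower ones. Grin2b fell to 0.709 times its level at 3w (log2 fold change -0.50 ± 0.11, adjusted p = 0.0159 in edgeR) and Grin2a to 0.739 times (-0.44 ± 0.11, adjusted p = 0.0315). In both, every mouse at 5m lay below every mouse at 3w, the nearest for Grin2a being 1098 CPM at 5m and 1114 CPM at 3w. Grin1 did not pass, at 0.03 ± 0.11 (adjusted p = 0.891), and neither did Grin2c (-0.11 ± 0.17), Grin2d (0.24 ± 0.23) and Grin3a (-0.30 ± 0.12, adjusted p = 0.138).

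The fall of Grin2b kept its side of the threshold in 7 of 8 fits that left out a mouse, and that of Grin2a in 2 of 8. Without mouse 189 neither passed. With the GC trend removed, Grin2b had -0.47 (adjusted p = 0.00618 in edgeR), Grin2a -0.37 (adjusted p = 0.0234) and Grin2c passed with -0.48 (adjusted p = 0.0135), while Grin1 had -0.34 (adjusted p = 0.107). The estimated trend shifted Grin1 by -0.45 on the log2 scale in the SC_SYN library of mouse 188 and by 0.30 in that of mouse 191.

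In the other fractions the log2 fold change of Grin2b was below 0 too. In input_SYN, where 3.22% of 12975 genes passed, its log2 fold change at 5m against 3w was -0.38 ± 0.10 (adjusted p = 0.0553 in edgeR, and 0.0213 with the GC trend removed, at -0.31) with no overlap of the groups, in SC_TH, where 17.9% of 16427 genes passed, -0.22 ± 0.06 (adjusted p = 0.022), and in input_TH, where 11.8% of 18078 genes passed and 7.05% were lower, -0.21 ± 0.06 (adjusted p = 0.0243). In SC_TH the 4 values went from 1608, 1811, 1656 and 1677 CPM to 1499, 1471, 1471 and 1432 CPM. With the GC trend removed this fold change was -0.13 (adjusted p = 0.156 in edgeR). No other subunit gene passed in SC_TH or input_SYN, where Grin2a had -0.18 ± 0.08 and -0.34 ± 0.12.

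In input_TH, Grin1 and Grin3a also fell between 3w and 5m. Grin1 went from 532, 583, 545 and 560 CPM to 425, 474, 505 and 467 CPM (-0.25 ± 0.06, adjusted p = 0.00794 in edgeR). Grin3a had a log2 fold change of -0.39 ± 0.06 (adjusted p = 2.14e-04), the largest of the family in this fraction, and passed in all 17 alternatives. Groups of both genes did not overlap. With the GC trend removed, Grin1 had -0.19 (adjusted p = 0.0202) and Grin3a -0.38 (adjusted p = 9.1e-05). Grin2a had -0.11 ± 0.07, Grin2c -0.17 ± 0.07 and Grin2d -0.23 ± 0.10, and none of these passed. In the same interval all 6 oligodendrocyte markers fell in each of the 4 fractions, their summed level in input_TH from 5316 to 6765 CPM at 3w to 2073 to 2455 CPM at 5m. The part of such shifts in the changes of the subunit genes was not tested.

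Between 5m and 18m no subunit gene passed in SC_SYN, SC_TH or input_SYN, where 0.014%, 2.17% and 0.139% of genes passed. At an unadjusted p under 0.05 in edgeR the counts were 2474 of 14240, 2878 of 16427 and 1214 of 12975 genes. In SC_SYN Grin1 was lower at 18m in every mouse than in any at 5m (-0.36 ± 0.11, adjusted p = 0.187 in edgeR, 0.0273 in DESeq2). This change passed in 2 of 17 alternatives, and in 0 of the 8 among them that left out a mouse. Over the 17, its log2 fold change was -0.40 to -0.19. The summed level of 6 excitatory neuron markers was also lower there, 2669 to 3093 CPM at 18m against 3300 to 4030 CPM at 5m, although 0 of 6 passed, and its part was not tested. Grin2b and Grin2a differed by 0.08 ± 0.11 and 0.04 ± 0.11, with 95% confidence intervals that reached from -0.21 to 0.32.

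In input_TH 15.5% of genes passed between 5m and 18m and 8.18% were higher, among them Grin2c, from 48.0, 49.0, 47.2 and 56.3 CPM to 57.0, 68.8, 58.8 and 64.0 CPM (0.34 ± 0.07, adjusted p = 0.00522 in edgeR), and Grin1 (0.20 ± 0.06, adjusted p = 0.0283). Neither was past the threshold once the GC trend was removed, with 0.12 (adjusted p = 0.282) for Grin2c and 0.03 (adjusted p = 0.781) for Grin1. The estimated trend was largest in the input_TH libraries of mice 196 and 198, where it stood for 0.22 and 0.23 in Grin2c and for 0.17 and 0.18 in Grin1 on the log2 scale, and it was near 0 in those of mice 195 and 197. At 5m, in mice 191 to 194, it stood for 0.007, -0.14, -0.10 and -0.15 in Grin2c. In Grin1 it stood for -0.006, -0.11, -0.08 and -0.11 in the same mice.

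**Figure D4:**
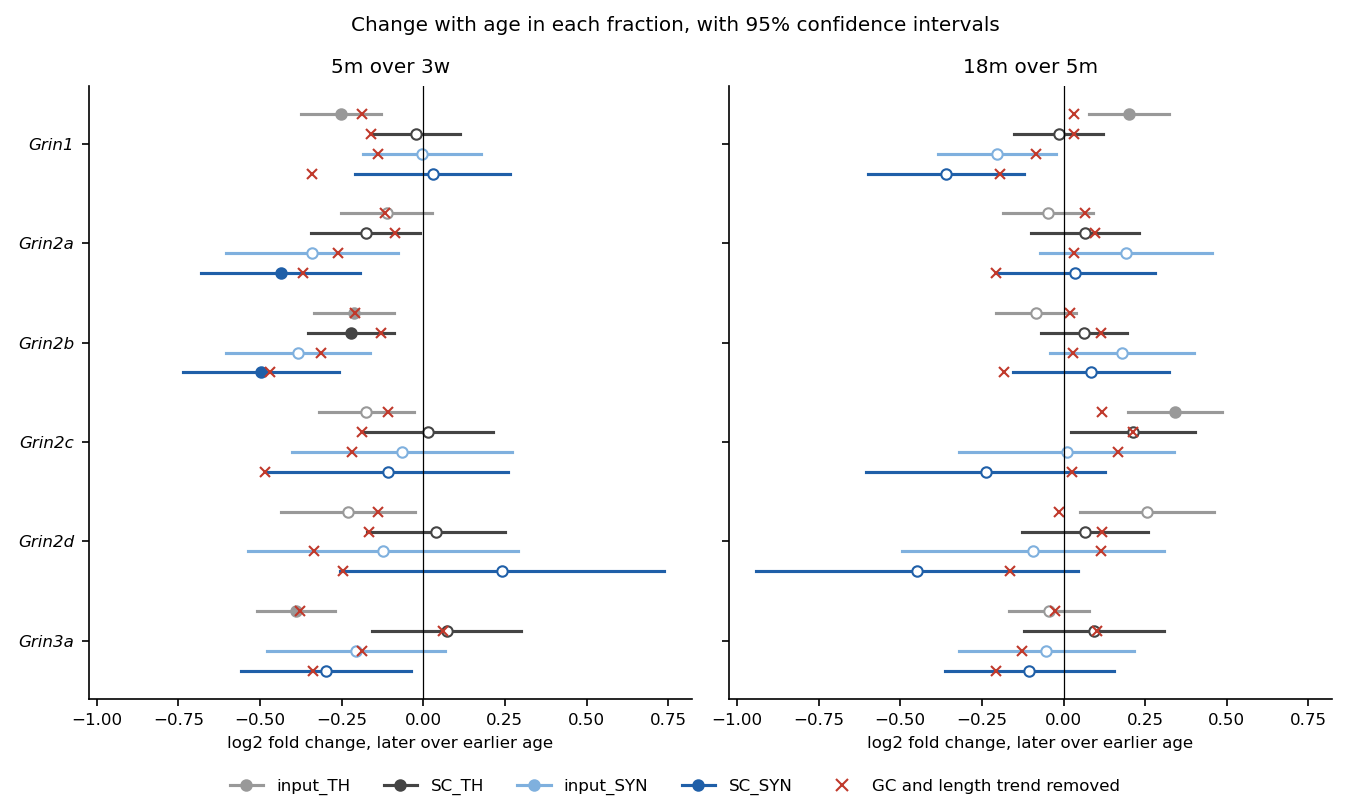
Log2 fold change between ages (horizontal axis) for each subunit gene in the 4 fractions, 5m over 3w on the left and 18m over 5m on the right, with 95% confidence intervals. Filled points have an adjusted p under 0.05 in edgeR and red crosses give the value with the GC and length trend removed; Grin2b lies below 0 in all 4 fractions on the left, and on the right only Grin1 and Grin2c in input_TH are filled.

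The switch from Grin2b toward Grin2a is the best known developmental change of the family. Grin2a is added during the first postnatal weeks and the youngest mice here were at 3w, so any earlier part of the switch could not be seen. From 3w on, the balance of these genes was followed as log2 of Grin2b counts over Grin2a counts within each library, a ratio that does not depend on scaling. Its mean lay between 1.12 and 1.36 in all 12 groups, so Grin2b counts exceeded Grin2a counts by a similar factor in every fraction and at every age. In input_TH it was 1.25 ± 0.082 (SD, n = 4) at 3w, 1.15 ± 0.037 at 5m and 1.12 ± 0.0089 at 18m. At 5m against 3w it was lower by a difference of -0.10, with every mouse at 5m below every mouse at 3w (p = 0.0286 in an exact two-sided permutation test, the smallest p that 70 assignments allow, and 0.229 after adjustment over the 8 comparisons). Without mouse 187, whose library was the highest at 3w, the difference was -0.059. In SC_SYN it went from 1.33 ± 0.042 to 1.26 ± 0.044 (p = 0.0571, exact permutation test) and then to 1.31 ± 0.052 at 18m (p = 0.2, exact permutation test). The other comparisons had exact p values of 0.143 to 0.914, and none passed after adjustment.

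**Figure D5:**
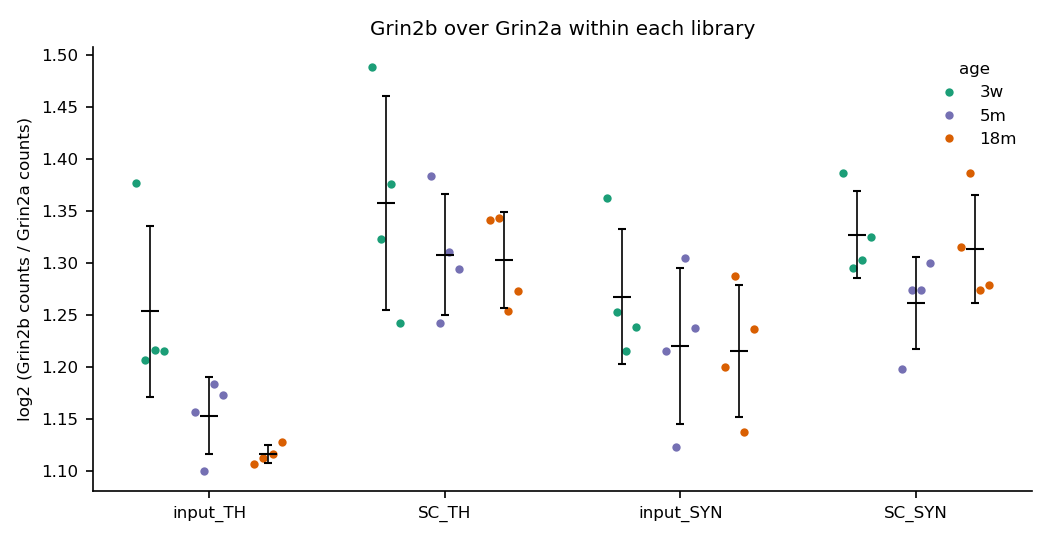
Log2 of Grin2b counts over Grin2a counts (vertical axis) in each library, by fraction, coloured by age, with black bars for the mean ± SD of 4 mice. Group means lie between 1.12 and 1.36, and in input_TH all 4 points at 5m lie below those at 3w.

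Partners of the receptor were described by 6 lists with 49 genes in all, of which 47 or 48 were tested. In SC_SYN between 3w and 5m, 3 of 47 were higher and 4 lower, where 8.05% of all genes passed in either direction. The kinase Fyn, which phosphorylates Grin2 subunits, fell by 0.82 (adjusted p = 2.83e-04 in edgeR), and Cask (-0.49) and Lin7a (-0.75), scaffolds that carry Grin2b along dendrites, and Neto1 (-0.38), an auxiliary protein of the receptor, fell too. The kinase Ptk2b (0.40), the phosphatase Ptpn5 (0.46) and the nitric oxide synthase Nos1 (0.45) rose. The part of the fall of the oligodendrocyte markers between 3w and 5m in the changes of the partners was not tested. None of the 4 genes listed as MAGUK scaffolds, a list without Cask, and none of 8 regulators tied to the switch passed in SC_SYN between 3w and 5m.

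In SC_TH between 3w and 5m, 12 of 48 partners were higher and 8 lower, where 17.9% of all genes passed, among them Slc6a9, a glycine transporter (0.66), Ptk2b (0.50), Rasgrf1 (0.66), Fyn (-0.46), Dlg2 (-0.34) and Ezh2 (-1.24). In input_SYN 1 of 47 was higher and 5 lower, where 3.22% of all genes passed, with Fyn at -0.77, Cask at -0.55 and Dlg2 at -0.39. In input_TH 5 of 48 were higher and 9 lower, where 11.8% of all genes passed, with Fyn at -0.54, Neto1 at -0.32, Dlg4, which encodes PSD-95, at -0.31 and Ptk2b at 0.28. Between 5m and 18m no partner passed in SC_SYN, SC_TH or input_SYN, and 5 of 48 were higher and 2 lower in input_TH, where 15.5% of all genes passed, with Calm3 at 0.31.

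Between the compartments the partners passed in both directions. In SC, 16 of 48 were higher in SYN and 14, 18 and 15 lower at 3w, 5m and 18m. Of all genes, 31.1%, 32.1% and 29.9% were higher, and 63.5%, 67.8% and 62.1% passed in either direction. The median log2 fold change of the partners at 5m was -0.16 against 1.16 for the 6 subunit genes. The kinase Camk2a, whose mRNA is known to travel into dendrites, was higher by 1.12, 1.45 and 1.61, and Reln by 1.82, 2.02 and 1.67. Rcor1, a nuclear corepressor, was lower by -1.17, -0.92 and -0.52, and Dlg3 by -0.60, -0.77 and -0.52. In input, 22, 23 and 23 partners were higher in SYN and 12, 12 and 10 lower. Of all genes there, 31.7%, 32.6% and 32.9% were higher, and 71%, 72.7% and 72.3% passed in either direction. Between SC and input, 4, 5 and 5 of 47 partners were higher in SYN and 6, 2 and 2 lower, where 18.5%, 20% and 12.6% of all genes passed in either direction, among the first Phgdh, an enzyme of serine synthesis (1.14, 1.34 and 0.85). In TH, 18, 31 and 32 of 48 were higher, among them Dlg3 (0.89, 0.93 and 0.85), and 4, 1 and 3 lower, where 52.8%, 62.1% and 64% of all genes passed.

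The likeness of patterns was measured by Pearson's r of mean log2 CPM over the 12 groups, among 10623 genes, as a description in which differences between fractions weigh most. Grin2b was second among all genes for Grin2a and Grin2a second for Grin2b (r = 0.994), after Kif5c (0.995) for Grin2a and Arel1 (0.997) for Grin2b, with Ildr2 next for Grin2a and Kcnk2 for Grin2b. The genes nearest to Grin1 were Sdf2, Igf2r and Gnai2 (each 0.996), and its nearest relative in the family was Grin2d (0.983). Nearest to Grin2c were Pcdha9 (0.984), Fam173a and Rps9, to Grin2d Galnt18 (0.993), Icam5 and Cntnap1, and to Grin3a Adgrl2 (0.991), Sc5d and Vldlr. Between Grin1 and Grin2b, r was 0.880, and Grin2b ranked 1824th for Grin1.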

How the data were processed

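RNA of 4 fractions per mouse was sequenced from rRNA-depleted, directional libraries with UMI adaptors; whether the UMIs were used is not given in the sources used here. The authors deposited a table of raw read counts per Ensembl gene, which per the submitters' processing notes came from bcl2fastq 2.20.0.422, TopHat2 2.1 and featureCounts on the mouse build GRCm38; per the methods of the study, reads were counted without regard to strand. The table has a column for each library. GENCODE symbols were found for 48144 of 48526 identifiers, and identifiers without one held 0.0596% of counts.

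Counts were scaled with TMM and tested in edgeR 4.0.16 (limma 3.58.1, R 4.3.3) with the quasi-likelihood test after its low-count filter, with Benjamini-Hochberg adjustment over all genes tested. Age was tested within a fraction over its 12 libraries, and SYN against TH and SC against input over the 24 libraries of the kind compared, with 1 factor of groups. Alternatives were library size, DESeq2 size factors and DESeq2 1.42.0, other count filters, no mitochondrial genes, other sets of libraries, the mouse as a block, removal by loess of the trend of each library on GC content and length, and leaving out each mouse. The 4 libraries with the same mouse number come from one animal, and after subtracting group means, log values of such libraries correlated with a median r of 0.142 over 72 pairs (-0.604 to 0.635). On counts simulated with the same spread for every gene, planted log2 changes of 0.5 and of 1 were sought in 200 genes each. In SC_SYN at 5m against 3w, 22 and 184 were called. For SYN against TH in SC at 5m, 22 and 188 were called. For the age change of TE in SYN between 5m and 18m, 1 and 91 were called. Changes of the smaller size were thus mostly missed in the simulation. Its spread was not taken from the subunit genes, of which Grin2b (-0.50 ± 0.11) and Grin2a (-0.44 ± 0.11) passed in SC_SYN at 5m against 3w. These counts therefore do not give how often a change in the subunit genes is missed. A gene that did not pass may still have changed. The ratio of Grin2b to Grin2a was compared by exact permutation tests.

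The subunit genes and the lists were chosen with earlier results of these data known. Partner genes were named as up to 3 per list with the smallest adjusted p among those that passed, and of these a selection is printed. Promoters and protein sequences were not used here, and some genes of the lists are not reported here by name.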

Additional observations from a re-analysis of the deposited data

Results flagged for a closer look

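In SC_TH at 5m, Grin1 stood at 653 CPM in mouse 192 and at 750 to 758 CPM in the other 3 mice, a gap of 0.9225 of the range of the group. In input_TH at 5m, Grin2b stood at 1075 CPM in mouse 191 and at 1320 to 1368 CPM in the others, a gap of 0.8355 of the range. Both gaps are above the limit for a sample far from its group (Dixon's test). Of 72 groups of 4 examined, 3.6 are flagged by chance alone and 2 were.

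The other results stand here because a change differed between ages or compartments by its own test in edgeR. The ratio of SC to input of Grin3a in TH was higher at 5m than at 3w by 0.4417 on the log2 scale. The ratio of SC to input was lower in SYN than in TH for Grin2a (-0.572 at 3w, -0.589 at 5m and -0.8788 at 18m), for Grin2b (-0.6128, -0.6987 and -0.9636) and for Grin3a at 18m (-0.4551), and higher for Grin2c at 3w (0.5751).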

How the results depend on the processing

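Of 2694 values of single subunit genes under an alternative, 2577 kept their side of the threshold, 83 lost it and 34 gained it. No value that passed as reported changed sign, but some of those that did not pass did, for example Grin1 in SC_SYN at 5m against 3w, which kept its sign in 13 of 17. All 6 genes passed in SYN against TH without any one mouse (6 to 6). The number of subunit genes that passed moved in these cases. Without a low-count filter it was 1 in SC_SYN, 0 in SC_TH and 2 in input_SYN for 5m against 3w, and 1 for SC against input in SYN at 3w. With the GC and length trend removed it was 0 in SC_TH and 1 in input_SYN for 5m against 3w, 0 in input_TH for 18m against 5m, and 0 for the age change of TE in TH (also 0 with the replicate block and the trend removed together). With library size it was 1 in input_TH for 18m against 5m, 1 for SC against input in SYN at 3w and 0 for the age change of TE in TH. With only the ages compared it was 2 in input_SYN (5m against 3w) and 1 in input_TH (18m against 5m). With all 48 libraries in one fit it was 1 in SC_SYN (18m against 5m), 0 in SC_TH, 1 in input_SYN and 1 in input_TH (5m against 3w), and 0 in input_TH (18m against 5m). DESeq2 gave 1 in SC_SYN (18m against 5m) and 1 in input_SYN (5m against 3w). For the age change of SYN over TH in input (18m against 5m) it was 1 with the mouse as a replicate block, DESeq2 size factors, at least 10 counts in every library, or DESeq2. The causes were not tested.

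Leaving out 1 mouse gave 0 to 2 in SC_SYN (0 without mouse 189), 0 to 1 in SC_TH (0 without mouse 188), 0 to 1 in input_SYN (1 without mouse 187) and 2 to 4 in input_TH for 5m against 3w, 1 to 2 in input_TH for 18m against 5m (1 without mouse 192, 194, 196, 197 or 198), 1 to 2 for SC against input in SYN at 3w (1 without mouse 189 or 190), 2 to 5 in TH at 3w (2 without mouse 188, 3 without mouse 187), 0 to 1 for the age change of TE in TH, and 2 to 2, 2 to 2 and 2 to 3 for the difference of TE between compartments at 3w, 5m and 18m. The log2 ratio of Grin2b to Grin2a for 5m against 3w was -0.116 to -0.0592 in input_TH, where 3 mice against 4 cannot reach the threshold (smallest exact permutation p = 0.0571), and -0.10 in SC_SYN with the GC trend removed (p = 0.0286, exact permutation test).

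The counts of Grin2d, Grin2c and Grin3a, from 42 to 1707 per library, limit their precision. Fold changes between fractions depend on the scaling. Counts do not show how many distinct molecules were read.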
